A study of Homo sapiens with 7 samples.

Results

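TOB1, TOB2, BTG1, BTG2 and BTG3 are 5 of the 19060 genes that could be named on the arrays, and they belong to the antiproliferative TOB and BTG family. They were chosen by symbol, through the RefSeq accession that the scanner files give for each gene probe, and each was measured by 1 probe of the 42405 gene probes. The levels come from 1-colour Agilent SurePrint arrays of total RNA from NCI-H520, a widely used cell line of human lung squamous cell carcinoma. The probes were A_23_P164179 for TOB1, A_32_P179676 for TOB2, A_23_P87560 for BTG1, A_23_P62901 for BTG2 and A_23_P80068 for BTG3. BTG4, the remaining close relative in the gene lists, known mainly from oocytes, was above background on 0 of the 7 arrays and has no level here.

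TOB and BTG proteins are adaptors of deadenylation, the shortening of the poly(A) tail that precedes the decay of most mRNAs. Their conserved N-terminal domain binds the catalytic CAF1 subunits of the CCR4-NOT complex, which are encoded by CNOT7 and CNOT8. TOB1 and TOB2 also carry PAM2 motifs in their C-terminal part, through which they bind the poly(A)-binding protein PABPC1, and so bring the deadenylase to the tail. TOB proteins further connect CCR4-NOT to CPEB3, which binds selected mRNAs. Members of the family slow cell proliferation, and BTG2 is a known target of p53 and an immediate early gene.

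Each of the 7 groups was 1 array, so no group had a replicate. The control transfections carried either the pLKO.1 empty vector or a non-target shRNA without homology to known genes. The other transfections carried a pLKO.1 plasmid with an shRNA against PARN, CNOT6, CNOT6L, CNOT7 or NOC (nocturnin, gene symbol NOCT). The study groups all of them as deadenylases, but it also cites a proposal that NOC can act on expression without that activity. All groups shared 6 µg of plasmid delivered by cationic liposomes, puromycin at 6 µg/mL from 12 h and harvest at 72 h, and nothing in the labels describes a clone or a second shRNA for a target. The labels give the CNOT6L and NOC shRNAs the same target accession, that of NOC, which leaves the sequence of the CNOT6L shRNA uncertain. Wild type cells were not analysed here. The arrays lay on 1 slide, with both controls, PARN shRNA and CNOT6 shRNA in slide row 1, and CNOT6L shRNA, CNOT7 shRNA and NOC shRNA in slide row 2 without a control.

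A level here is a processed signal on the log2 scale, from which the 75th percentile of the gene probes of its array was subtracted, so it is a position within an array and not an amount of mRNA. In RNA from a whole culture, fewer cells with an mRNA and less of it per cell cannot be told apart. Levels of different probes are not set against each other. Between 82.0% and 91.5% of gene probes were above background on an array, and the 75th percentile of signal was lowest with CNOT6 shRNA, at 858, and highest with CNOT7 shRNA, at 2372. On their own arrays, PARN mRNA lay at 45.1% of the control mean, CNOT7 mRNA at 56.1% and 52.1% by its probes, CNOT6L mRNA at 64.7% and 58.7%, NOCT mRNA at 76.0% and CNOT6 mRNA at 87.9%. Each targeted mRNA was below both controls on its own array, but with 1 array per group this has no replicate check. CNOT6 differed from the controls by only -0.23 and -0.14, with the lower quartile of all probes at -0.14 from the control mean. NOCT differed by -0.60 from the empty vector but by -0.20 from the non-target array. Below, silencing names the shRNA that an array received and not an established loss of its target. Of the squamous markers, SOX2, KRT6A, KRT17 and PKP1 were above background on all 7 arrays, whereas KRT5 was so on 4, TP63 on 2, KRT14 on 1 and DSG3 on 1. The epithelial markers EPCAM, KRT8, KRT18 and CDH1 were above background on all 7 arrays. At least 1 probe for each of the 4 fibroblast, 4 leukocyte and 3 endothelium markers was above background on every array as well. By its brightest probe, CD14, with levels between 3.62 and 4.52, was the only one of these markers above the 75th percentile of its array.

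All 5 members were readily measured. Every spot of the 5 probes was above background on all 7 arrays, and no spot was marked as an outlier or saturated. TOB1, BTG1 and BTG2 had 2 spots each, whereas TOB2 and BTG3 had 1 spot, so their values rest on a single spot per array. The plot of levels by array shows the values of each of the 5 mRNAs.

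**Figure D1:**
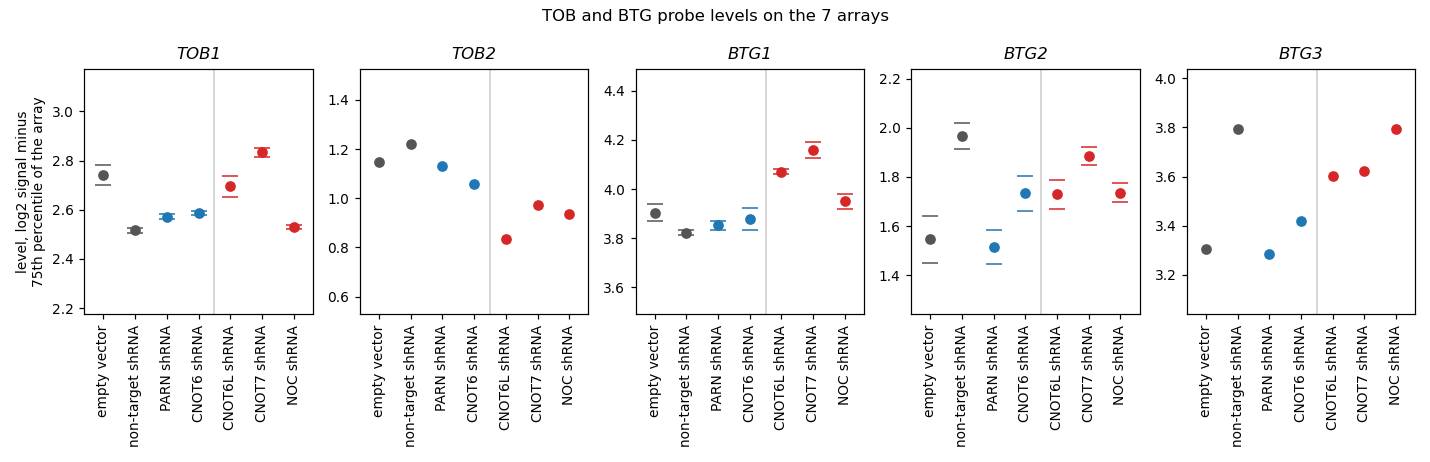
Level of each TOB and BTG probe (y axis, log2 signal minus the 75th percentile of the array) on each of the 7 arrays (x axis). Points are the mean over spots and short horizontal bars the single spots where a probe has 2. Grey marks control arrays, blue the other arrays of slide row 1 and red those of slide row 2, with a vertical line between rows. Each panel spans the same height on its log2 axis, and TOB1 ranged over 0.32 while BTG3 ranged over 0.51.

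TOB1, the founding TOB protein, was highest upon CNOT7 silencing. Its level was 2.74 with the empty vector, 2.52 with the non-target shRNA, 2.57 with PARN shRNA, 2.59 with CNOT6 shRNA, 2.69 with CNOT6L shRNA, 2.83 with CNOT7 shRNA and 2.53 with NOC shRNA. The CNOT7 shRNA array was the only one above both controls, by 0.09 against the empty vector and 0.32 against the non-target shRNA, and the remaining 4 shRNA arrays lay between the controls. The TOB1 spots of 1 array differed by 0.02 to 0.08. Only some neighbouring arrays in the order of levels were further apart than that. These were CNOT6 shRNA and CNOT6L shRNA, by 0.11, and the empty vector and CNOT7 shRNA, by 0.09. Spots of 1 array share its RNA and scaling, so the gap between them does not measure error between arrays.

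TOB2, the close paralogue of TOB1, was lower on every shRNA array than on either control array. The level was 1.15 with the empty vector and 1.22 with the non-target shRNA. It was 1.13 upon PARN, 1.06 upon CNOT6, 0.83 upon CNOT6L, 0.97 upon CNOT7 and 0.94 upon NOC silencing. The shRNA and control arrays therefore did not overlap, although the PARN shRNA array was only 0.02 below the empty vector, and 4 shRNA arrays were below both controls with normexp background correction and 2 without scaling between arrays. TOB2 was the 1 member of 5 with this pattern, which 3.34% of the 33815 probes above background on all arrays also had. The lowest value, upon CNOT6L silencing, was 78.4% of the control mean, with differences of -0.31 from the empty vector and -0.39 from the non-target shRNA. With 1 spot per array TOB2 has no spread between spots. Over all probes with 2 spots the median SD between them was 0.05 to 0.07 by array, which does not measure error between arrays. All gaps between neighbours in the order of TOB2 levels were 0.10 or less.

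BTG1, which like BTG2 is a small CAF1-binding protein without the long C-terminal part of the TOB proteins, was highest upon CNOT7 silencing, as was TOB1. Its level was 3.90 with the empty vector, 3.82 with the non-target shRNA, 3.85 with PARN shRNA and 3.88 with CNOT6 shRNA. It was 4.07 with CNOT6L shRNA, 4.16 with CNOT7 shRNA and 3.95 with NOC shRNA. The 3 arrays of slide row 2 were thus above both controls, or 2 of them with quantile normalization or without scaling, and PARN and CNOT6 shRNA lay between the controls. The value upon CNOT7 silencing was 122.7% of the control mean, or 0.25 above the empty vector and 0.34 above the non-target shRNA. BTG1 spots of 1 array differed by up to 0.09, and among neighbouring arrays only NOC shRNA and CNOT6L shRNA were further apart, by 0.12. The gap between spots does not measure error between arrays here either.

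BTG2, the p53-responsive member, differed more between the controls than between most shRNA arrays. Its level was 1.55 with the empty vector, 1.97 with the non-target shRNA, 1.51 with PARN shRNA and 1.73 with CNOT6 shRNA. It was 1.73 with CNOT6L shRNA, 1.89 with CNOT7 shRNA and 1.74 with NOC shRNA. The non-target array was the highest and the PARN shRNA array the lowest, and 4 of the 5 shRNA arrays lay between the controls. Its pair of spots differed by 0.08 to 0.19, with the same spot higher on all 7 arrays, so this gap does not measure error between arrays. By either spot, PARN shRNA was lowest, the empty vector next and the non-target array highest.

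BTG3, also known as ANA, had the widest range of the 5 members. Its level was 3.30 with the empty vector, 3.79 with the non-target shRNA, 3.28 with PARN shRNA and 3.42 with CNOT6 shRNA. It was 3.60 with CNOT6L shRNA, 3.62 with CNOT7 shRNA and 3.79 with NOC shRNA. PARN shRNA and the empty vector were the lowest and 0.02 apart, while NOC shRNA and the non-target shRNA were the highest and apart by less than 0.01. The controls thus spanned nearly the whole range, and 3 of the 5 shRNA arrays lay between them.

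The range over the 7 arrays was below the median of all probes for each of the 5. It was 0.32 for TOB1, 0.39 for TOB2, 0.34 for BTG1, 0.45 for BTG2 and 0.51 for BTG3 on the log2 scale, which are folds of 1.25, 1.31, 1.26, 1.37 and 1.43. The median range of all 33815 probes above background on every array was 0.70, with quartiles of 0.49 and 1.02. The share of these probes with a smaller range was 6.61% for TOB1, 13.2% for TOB2, 8.04% for BTG1, 20.3% for BTG2 and 27.4% for BTG3. Among the 1001 probes nearest in mean signal, the shares were 17.4%, 22.4%, 22.9%, 36.2% and 56.8% in the same order. TOB1, TOB2 and BTG1 thus ranged less than most probes of like signal, whereas BTG3 was near the middle.

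The first comparison asked whether silencing a targeted gene changed the adaptor mRNAs. None of the 5 members differed at least 2-fold from both controls upon any shRNA. The share of all gene probes that did was 0.84% upon PARN, 0.689% upon CNOT6 and 1.03% upon CNOT6L silencing. It was 1.36% upon CNOT7 and 1.79% upon NOC silencing. With such shares and 5 probes, a count of 0 is near the background and is no result about the family. With 1 array per group the differences have no replicate check and no test was made for a single shRNA.

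**Figure D2:**
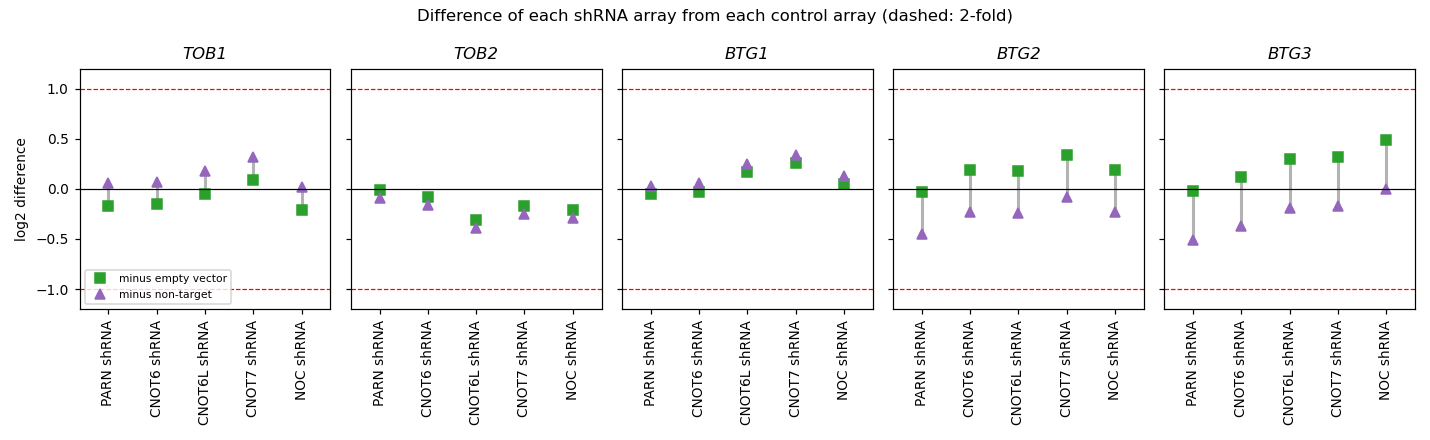
Log2 difference of each shRNA array (x axis) from the empty-vector array (squares) and from the non-target array (triangles), with 1 panel per member. Dashed lines mark a 2-fold difference, which no point reaches, and for TOB2 alone all 10 points lie below 0.

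The sizes were small throughout. Of the 25 values, 5 members upon 5 shRNAs, 5 lay above both controls, 7 below both and 13 between them, and 0 reached 1.5-fold against both. The share of all probes on each side was not counted, so counts of sides are no result about the family. The largest difference from a single control was -0.51, for BTG3 upon PARN silencing against the non-target array, and against the empty vector the same value differed by -0.02. The largest from the control mean was -0.35, for TOB2 upon CNOT6L silencing.

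Upon PARN silencing 3 members were below both controls, but only by 0.02 for TOB2, 0.03 for BTG2 and 0.02 for BTG3, and none above. BTG2 was at 84.5% and BTG3 at 83.3% of the control mean, TOB2 differed from that mean by -0.05, TOB1 by -0.06 and BTG1 by -0.01. The BTG2 and BTG3 differences came almost wholly from the non-target array, with -0.45 and -0.51 against it but -0.03 and -0.02 against the empty vector. Upon CNOT6 silencing TOB2 alone was outside the controls, at -0.12 from their mean, and the remaining 4 members differed from it by -0.13 to 0.01.

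Upon CNOT6L silencing BTG1 was above both controls, at 115.5% of their mean, and TOB2 below both. TOB1, BTG2 and BTG3 differed from the control mean by 0.07, -0.03 and 0.06. CNOT7 encodes the deadenylase subunit to which these adaptors bind, and upon its silencing TOB1 and BTG1 were above both controls, at 115.2% and 122.7% of their mean, with TOB2 below both at 86.3%. BTG2 and BTG3 differed by 0.13 and 0.08 and lay between the controls. Upon NOC silencing BTG1 and BTG3 were above both controls, BTG3 at 118.7% of their mean but less than 0.01 above the non-target array, and TOB2 was below both at 84.2%.

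The controls set the scale for these values. The empty vector minus the non-target array gave 0.23 for TOB1, -0.08 for TOB2, 0.08 for BTG1, -0.42 for BTG2 and -0.49 for BTG3. None of the 5 reached 2-fold here either, beside 17.1% of all gene probes. With 5 probes a count of 0 is near that share too and is no result about the family. For TOB1 and BTG2 4 of the 5 shRNA arrays lay between the controls, and for BTG3 3 did. The distance of such an array from the control mean is always smaller than the difference between controls, so these are not compared. Beyond the nearer control, the furthest shRNA array lay 0.09 out for TOB1, 0.03 for BTG2 and 0.02 for BTG3. For TOB2 the difference between controls was smaller than the differences from the control mean upon CNOT6, CNOT6L, CNOT7 and NOC silencing. For BTG1 it was smaller than those upon CNOT6L, CNOT7 and NOC silencing.

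**Figure D3:**
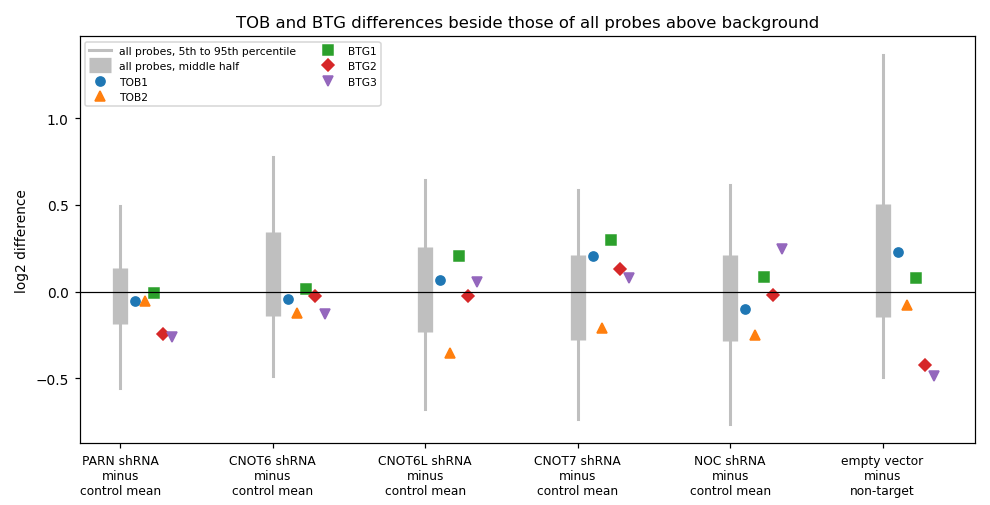
Log2 difference (y axis) of the 5 members (symbols) upon each shRNA from the control mean, and between the control arrays (right), beside all 33815 probes above background on every array. Thick bars span the quartiles and thin bars the 5th to 95th percentile of those probes. All member symbols lie within the thin bars, and the thin bar is widest between the controls, from -0.49 to 1.36.

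Beside all probes, the members lay inside the bulk. The 5th and 95th percentiles of the difference from the control mean were -0.55 and 0.49 upon PARN, -0.48 and 0.78 upon CNOT6, -0.68 and 0.64 upon CNOT6L, -0.73 and 0.59 upon CNOT7 and -0.77 and 0.61 upon NOC silencing. All 25 values fell between these limits.

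The slide row moved with the values that stood outside the controls most often. All 3 arrays of row 2 were above all 4 of row 1 for BTG1, with levels of 3.95 to 4.16 against 3.82 to 3.90, and below them for TOB2, with 0.83 to 0.97 against 1.06 to 1.22. A separation of the rows in either direction was found for 2 of the 5 members and for 25.6% of the probes above background on all arrays. Row 2 minus row 1 was 0.08 for TOB1, -0.23 for TOB2, 0.20 for BTG1, 0.09 for BTG2 and 0.22 for BTG3. As row 2 held no control, the row and the CNOT6L, CNOT7 and NOC shRNAs cannot be told apart. The NOC shRNA image was also extracted on another day.

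Within row 2, where a row effect cancels, 0 members differed 2-fold from both other arrays, against 1.19% of gene probes upon CNOT6L, 0.325% upon CNOT7 and 0.479% upon NOC silencing. Against the mean of the other arrays of the row, CNOT7 silencing gave 0.22 for TOB1, 0.15 for BTG1, 0.15 for BTG2, 0.09 for TOB2 and -0.08 for BTG3. TOB2, which was below both controls upon CNOT7 silencing, was thus not below its row mates. NOC silencing gave -0.23 for TOB1, -0.16 for BTG1 and 0.18 for BTG3, and CNOT6L silencing -0.12 for TOB2, -0.11 for BTG3 and 0.02 for BTG1. BTG1 upon CNOT6L silencing, 0.21 above the control mean, was 0.12 above NOC shRNA and 0.09 below CNOT7 shRNA. The 0.02 thus averages opposite gaps to arrays that received shRNAs too, and it does not bear on the difference from the controls.

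The 5 shRNA arrays together were compared with both controls by limma, so that unlike shRNAs and unlike control plasmids, and not replicates, set the spread. None of the 5 members passed, beside 0% of the 38091 probes tested, of which 1427 had an unadjusted p under 0.05 and 0 members did. TOB2 differed by -0.20 with an SE of 0.13 and a 95% interval of -0.49 to 0.09, at a limma Benjamini-Hochberg adjusted p of 0.998. BTG1 differed by 0.12, with an interval of -0.16 to 0.39 and the same adjusted p in limma. TOB1 differed by 0.01 and BTG2 by -0.04, with intervals of -0.28 to 0.31 and -0.38 to 0.31. BTG3 differed by less than 0.01 with an interval of -0.40 to 0.39. With slide row as a term, which leaves the comparison to the arrays of row 1, the differences were -0.089 for TOB2, 0.0015 for BTG1, -0.049 for TOB1, -0.13 for BTG2 and -0.20 for BTG3, and none of the 5 passed. TOB2 and BTG1 were thus nearer to 0, and BTG2 and BTG3 further from it. Without the row term, all 5 intervals exclude a 2-fold difference between shRNA and control arrays on average, but none excludes a difference of 0.30 log2 in at least 1 direction.

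Among themselves, the members paired differently. The level of BTG2 followed that of BTG3 over the 7 arrays (Pearson r of 0.82), and TOB1 followed BTG1 (r of 0.77), while TOB2 ran opposite to BTG1 (r of -0.77). TOB1 and TOB2, the closest paralogues, had an r of -0.33. The other 6 of the 10 pairs had r between -0.29 and 0.26. These are descriptions over 7 arrays that share a slide, a cell line and one scaling value per array. Without the controls, over 5 arrays, r was 0.66 for BTG2 with BTG3, 0.89 for TOB1 with BTG1 and -0.69 for TOB2 with BTG1, but most other pairs moved. BTG1 with BTG2 went from 0.26 to 0.79, TOB1 with BTG2 from -0.04 to 0.68, and BTG1 with BTG3 from 0.24 to 0.57. TOB2 with BTG2 went from -0.05 to -0.55 and TOB2 with BTG3 from -0.29 to -0.77. Over these 5 arrays TOB1, BTG1, BTG2 and BTG3 all had positive r with each other, the lowest being 0.16 for TOB1 with BTG3, and TOB2 had negative r with each of them.

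**Figure D4:**
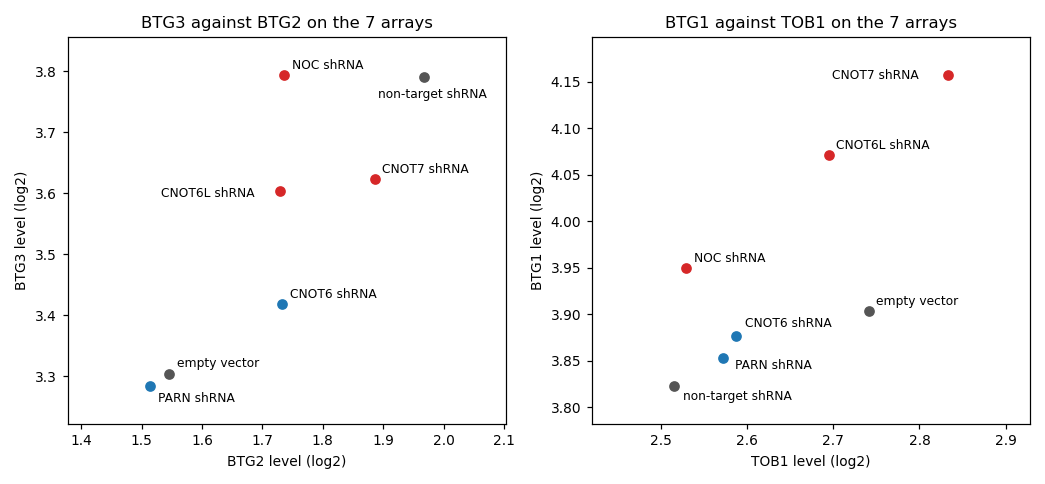
Levels (log2) of BTG3 against BTG2 (left) and of BTG1 against TOB1 (right), with 1 point per array. Grey marks controls, blue the other arrays of slide row 1 and red those of slide row 2. On the left the controls sit near opposite ends, and on the right the CNOT7 shRNA array is highest on both axes.

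The bases before the start of BTG2 and BTG3 are shown, as RefSeq gives them for GRCh38.p14, because this pair had the highest r over the 7 arrays. That order of pairs turned without the controls, with quantile normalization (0.80 for TOB1 with BTG1 against 0.78) and without scaling (0.99 against 0.98). Each run holds the 250 bases before the start, 5′ to 3′ on the strand of the gene. BTG2 is from chr1:203305269-203305518 (plus strand, 74.8% G or C) and BTG3 from chr21:17612902-17613151 (minus strand, 78.4% G or C). Capitals mark matches on either strand to CCAAT (the CCAAT box), TGACG (a cAMP response element core), GGGCGG (the GC box), TATAAA (the TATA box) or CACGTG (an E-box), and no marked match overlaps another.
BTG2: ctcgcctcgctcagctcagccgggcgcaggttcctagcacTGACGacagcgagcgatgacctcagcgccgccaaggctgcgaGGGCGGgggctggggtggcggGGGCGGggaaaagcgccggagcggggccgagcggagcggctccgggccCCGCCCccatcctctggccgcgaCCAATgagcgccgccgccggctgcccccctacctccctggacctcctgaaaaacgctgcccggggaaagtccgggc
BTG3: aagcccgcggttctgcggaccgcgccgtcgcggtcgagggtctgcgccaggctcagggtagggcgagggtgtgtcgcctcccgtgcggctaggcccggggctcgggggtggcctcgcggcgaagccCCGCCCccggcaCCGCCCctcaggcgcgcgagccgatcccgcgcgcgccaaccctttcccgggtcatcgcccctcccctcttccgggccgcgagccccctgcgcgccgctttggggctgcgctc
Over the 300 bases of a window, which include 50 after the start, BTG2 had 1 CCAAT, 1 TGACG and 3 GGGCGG, whereas BTG3 had 3 GGGCGG, 2 of them before the start, and none of the others. BTG1 had 1 CCAAT, 2 TGACG, 1 GGGCGG and 1 TATAAA, and TOB2 had 2 GGGCGG. TOB1 has 2 windows in the table, of which 1 had 1 CCAAT, 1 TGACG and 3 GGGCGG and the other had no match. CACGTG was in none of the 6 windows. Of 35116 windows of the same length, 45.0% held GGGCGG, 34.6% CCAAT, 24.6% TGACG, 11.5% TATAAA and 7.26% CACGTG. A match describes the letters of a window and is not a measured binding site.

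The partners of the adaptors were measured on the same arrays. Of 22 genes listed for CCR4-NOT, PAN2-PAN3, the poly(A)-binding proteins and the CPEB family, 21 were named on the array and 20 were above background on all 7 arrays. None was called 2-fold from both controls upon any shRNA, beside 0.689% to 1.79% of all gene probes by shRNA. By limma 0 of 20 passed and 1 had an unadjusted p under 0.05, beside 1427 of the 38091 probes tested, so neither count stands apart from the background. The median difference from the control mean was -0.03 upon PARN, -0.07 upon CNOT6, 0.11 upon CNOT6L, 0.00 upon CNOT7 and 0.05 upon NOC silencing, beside -0.02, 0.08, 0.02, -0.03 and -0.03 for all probes.

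**Figure D5:**
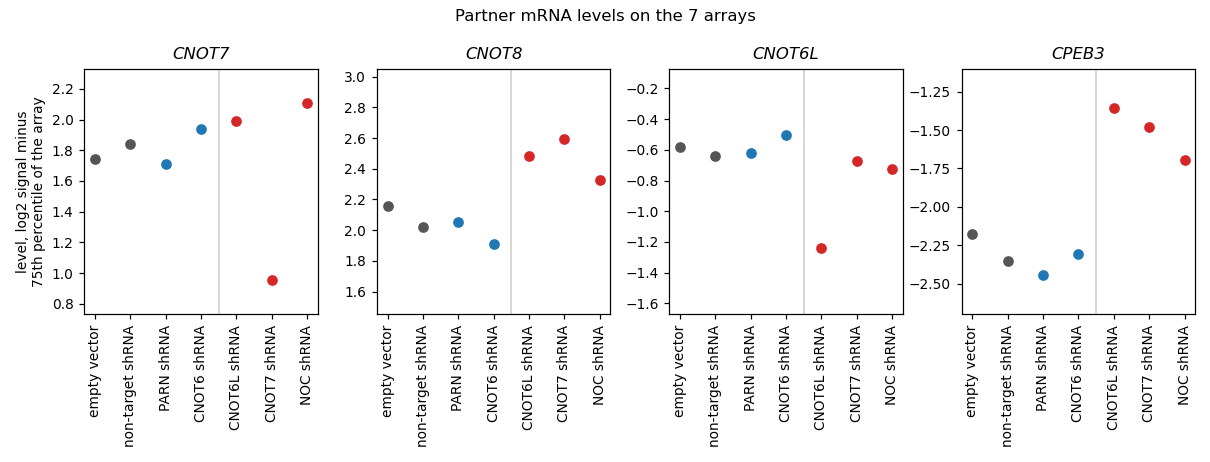
Level (y axis, log2 signal minus the 75th percentile of the array) of the brightest probe of CNOT7, CNOT8, CNOT6L and CPEB3 on each of the 7 arrays (x axis). Grey marks controls, blue the other arrays of slide row 1 and red those of slide row 2. CNOT7 and CNOT6L are lowest on their own shRNA arrays, and CNOT8 and CPEB3 are higher on all 3 red arrays than on the rest.

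CNOT7, the direct partner, had levels of 1.74 and 1.84 in the controls, 0.96 upon its own silencing and 1.71 to 2.11 on the other shRNA arrays. CNOT8 encodes the alternative CAF1 subunit and is named here after its values were seen. Its level was 2.16 and 2.02 in the controls, 2.05 upon PARN, 1.91 upon CNOT6, 2.49 upon CNOT6L, 2.60 upon CNOT7 and 2.32 upon NOC silencing. It was highest where CNOT7 was lowest, at 0.51 above the control mean, but its 3 highest arrays were those of slide row 2. TOB1 and BTG1 were highest on that CNOT7 shRNA array too, whereas TOB2, BTG2 and BTG3 were not. TOB1 was only 0.09 above the empty vector there, and the 3 highest arrays of BTG1 were also those of row 2. The share of all probes that were highest on the CNOT7 shRNA array was not counted, and a link to CNOT7 was not tested.

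CPEB3, the mRNA-binding partner of the TOB proteins, had the largest change of the list. Its level was -2.18 and -2.35 in the controls, -2.44 upon PARN, -2.30 upon CNOT6, -1.35 upon CNOT6L, -1.48 upon CNOT7 and -1.70 upon NOC silencing. Upon CNOT6L silencing it was 0.91 above the control mean, but 0.23 above the mean of its row mates. CNOT6, CNOT8, CNOT11 and CPEB3 were above both controls on all 3 arrays of row 2, and CNOT6L, CPEB1 and TNKS1BP1 below both. These are 7 of the 20 partners, beside 37.9% of the probes above background on all arrays and 2 of the 5 members, so the count says nothing particular about the partners.

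As BTG2 is a p53 target and an immediate early gene, other genes of both kinds were read beside it. Of 20 p53 target genes, all above background on every array, SESN2, a stress-induced inhibitor of mTORC1 signalling, was the only one called. It was called higher upon NOC silencing, by 1.14 against the empty vector and 1.03 against the non-target array, but all of slide row 2 was high. Its levels were 2.97 to 3.20 in row 2 and 1.93 to 2.17 in row 1, and against its row mates the NOC shRNA array differed by 0.15. Of all gene probes, 0.689% to 1.79% were called by shRNA, so 1 gene of 20 is no result about the list. The next largest change from the control mean after SESN2 was that of PLK3, a stress-responsive kinase, at -0.79 upon CNOT7 silencing. The medians of the list were -0.16, -0.02, 0.11, -0.01 and 0.01 with the PARN, CNOT6, CNOT6L, CNOT7 and NOC shRNA in turn.

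Of 23 immediate early genes, 22 were above background on all arrays. KLF10, a TGF-beta-inducible transcription factor, was called lower on all 3 arrays of row 2. Its level was 3.69 and 3.86 in the controls, 3.79 upon PARN, 3.74 upon CNOT6, 2.62 upon CNOT6L, 2.52 upon CNOT7 and 2.43 upon NOC silencing. Within the row it differed from its row mates by 0.14, 0.00 and -0.14. EGR3, a growth factor-induced transcription factor, was called lower upon NOC silencing, by -1.33 against the empty vector and -1.04 against the non-target array, but all of slide row 2 was low. Its levels were -5.84 to -5.57 in row 2 and -4.80 to -4.51 in row 1, and against its row mates the NOC shRNA array differed by -0.26. The genes called of 23 were thus 1 upon CNOT6L, 1 upon CNOT7 and 2 upon NOC silencing. Of all gene probes, 1.03%, 1.36% and 1.79% were called in the same order, and such small counts are no result about the list. The medians of the list were 0.00, 0.15, -0.32, -0.37 and -0.24 in the same order of shRNAs, while BTG2 differed from the control mean by -0.24, -0.02, -0.03, 0.13 and -0.02. BTG2 thus lay above the list's median on each array of row 2 and below it on the PARN and CNOT6 shRNA arrays. By limma, 0 of the 20 p53 target genes and 0 of the 22 immediate early genes had an adjusted p under 0.05 or an unadjusted p under 0.05. Of the 38091 probes tested, 0 had such an adjusted p and 1427 such an unadjusted p, so these counts are near the background.

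For each member, the 3 genes with the most similar levels over the 7 arrays were sought among 16495 other named genes above background on all arrays. They were SS18L1, TRIAP1 and MTMR2 for TOB1, with r of 0.99, 0.99 and 0.97. For TOB2 they were ZNF189, DPH7 and ZNHIT6, with r of 0.99, 0.99 and 0.99. For BTG1 they were RECQL, DNAJC13 and HNRNPF, with r of 0.99, 0.98 and 0.98. For BTG2 they were MCOLN3, RBM7 and TGFB1I1, with r of 0.99, 0.97 and 0.97. For BTG3 they were IL17RA, ACOT9 and UBTD2, with r of 0.99, 0.99 and 0.99. These values describe 7 arrays, were picked as the highest of many, and no gene was among the 3 of more than 1 member.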

How the data were processed

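The scanner files of the authors hold spot intensity of 1-colour Agilent arrays, read per the file headers by Agilent Feature Extraction 10.7.3.1. The deposited series table holds log2 values that the authors scaled per array and centred per probe. Its differences between arrays were checked over the 33815 probes above background on all arrays, after the median shift of each array was removed. They matched those of the scanner files within 0.02 for 100% of these probes. Groups were taken from the sample titles. Control spots and outlier spots were left out, spots of 1 probe were averaged on the log2 scale, and the 75th percentile over gene probes was subtracted per array. A probe counted as above background with 50% or more of its spots marked so. A call needed a 2-fold difference in 1 direction from both controls, and a dim side was raised to the lowest value above background on its array where it was under it. RefSeq symbols of GRCh38.p14 named 24824 probes. Probe sequences were not used here, so cross-hybridisation to the BTG1, BTG3 and TOB2 pseudogenes was not tested.

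With limma 3.58.1 (R 4.3.3, lmFit, eBayes with a trend, two-sided, Benjamini-Hochberg at 0.05), the 5 shRNA arrays were set against both controls, using probes that were above background on 2 arrays or more. The scripts were tested on simulated data. Named were the members, the targeted genes, the 3 genes most like each member, and from each list the genes called or the 2 that changed most. The members and lists were chosen with earlier results of these data known, and the motifs after the sequences were seen. The number of arrays limits the precision. Alternatives covered scaling, the series table, normexp with an offset of 50, thresholds, filters, single controls, slide rows and leaving out each array.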

Additional observations from a re-analysis of the deposited data

How the results depend on the processing

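The number of members called stayed 0 in 112 recomputed counts and was above it in 1. Among the 112, the counts at a 4-fold threshold or with both sides above background could only be 0, as those rules are stricter. Counts with outlier spots kept or from the series table had almost no room to change either. No member spot was an outlier, keeping outliers moved the median of an array by 0.0014 at most, and the series table matched within 0.02. Without scaling between arrays 1 member was called upon CNOT6 silencing, where that setting moved the median of all probes by -0.98. No scaling and quantile normalization moved the median of an array by more than 0.1, the latter by -0.13 for CNOT6 shRNA. TOB2 was below both controls on 5 shRNA arrays under each scaling except normexp, with 4, and no scaling, with 2. BTG1 was above both on 3, except 2 with quantile normalization and 2 without scaling, and in both of these its separation by slide row was lost. TOB1 and BTG1 were highest on the CNOT7 shRNA array under all 7 settings, but not all of these could change that. Without scaling, BTG2 and BTG3 were highest there too, on the array with the highest 75th percentile of signal. Keeping outlier spots or using the series table left almost no room for change, as above. Where arrays were scaled, the differences from the control mean were 0.13 to 0.24 for TOB1 and 0.20 to 0.35 for BTG1. A 75th percentile over all spots was added after the data were seen, and with it and with quantile normalization BTG3 was highest on the non-target array. BTG3 was lowest on the empty-vector array with quantile normalization. Without scaling r was 0.98 for BTG2 with BTG3 and 0.99 for TOB1 with BTG1.

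With slide row as a term or in row 1 only, TOB2 moved from -0.20 to -0.089, BTG1 from 0.12 to 0.0015, BTG2 from -0.04 to -0.13 and BTG3 from -0.0027 to -0.20. No member passed limma in any setting, and the smallest adjusted p ranged from 0.573 to 1. Over all probes, limma made 64 calls without the empty vector, 10 without the non-target array, 13 without scaling and 0 otherwise. Differences of shRNA from control arrays reversed for TOB1, from 0.01 to -0.023 with quantile normalization, -0.035 without scaling and -0.049 with slide row as a term or in row 1 only, and for BTG2, to 0.0031 with normexp. Leaving out each array gave -0.10 to 0.13 for TOB1, -0.24 to -0.16 for TOB2, 0.07 to 0.16 for BTG1, -0.25 to 0.17 for BTG2 and -0.25 to 0.24 for BTG3. The ends of the BTG2 and BTG3 ranges came from leaving out 1 control each. The cause was not tested.

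A mean over all probes of a gene gave no separate value, since each member has 1 probe. No paired analysis was possible because each group has 1 array and the groups share only 1 replicate number.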
